A study of Mus musculus with 23 samples.

Results

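The genes for the proteins of the mitochondrial ribosome were followed as a group in innervated and denervated mouse skeletal muscle. Members were the protein-coding genes of the deposited count table whose symbol starts with Mrpl or Mrps and a number, at 1 or more CPM (counts scaled to a common library total) in at least 3 libraries of the first set. This kept 77 of 78 candidates, from 54446 genes in the table. The candidate left out was Mrpl53, at 0.0272 CPM in its third-highest library, while the members nearest the minimum, Mrps34 and Mrps6, stood at 4.50 and 10.4 CPM on the same measure. Another 5 pseudogenes with such symbols were not members. The second set listed 75 of the members among its 15624 genes, all but Mrpl33 and Mrps6. By known structure 50 members belong to the large subunit and 26 to the small subunit. The remaining member, Mrps36, carries the family's symbol but is known as a part of the 2-oxoglutarate dehydrogenase complex.

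Mitochondria keep their own ribosome, which makes the few membrane subunits of the respiratory chain and of ATP synthase that mitochondrial DNA encodes. Its ribosomal RNAs are read from mitochondrial DNA (mt-Rnr1 for the small subunit, mt-Rnr2 for the large), whereas every protein of the particle is encoded in the nucleus, made in the cytosol and imported, so the 2 genomes both supply it. Some of these proteins have bacterial homologues and others are found only in mitochondria, and skeletal muscle, rich in mitochondria, loses mitochondrial content when its nerve supply is cut. Alpha-PAL, the product of Nrf1, is an activator of nuclear genes for mitochondrial proteins that binds a palindrome of GC-rich letters.

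The first set held raw counts for 9 libraries: 3 of innervated muscle from WT mice, 3 of WT muscle at 10 d after denervation (cutting of the motor nerve, which leads to atrophy) and 3 of muscle from PAX4 KO mice, also at 10 d after denervation. PAX4, the gene targeted there, encodes a transcription factor of the paired box family. The second set held only denervated muscle, all at 10 d: 2 WT con libraries (numbered 2 and 3), 3 labelled NRF1 KD from mice given as NRF1PAL KD, and 3 labelled NRF1-PAX4 double KD from mice given as NRF1PAL-PAX4 double KD. It has no innervated control, and the labels give no strain, sex, age, muscle name, Cre, promoter or vector for any group, nor do they say whether libraries came from separate animals, so the tests weigh differences against library-to-library spread, which may be technical only.

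Libraries held 21716216 to 42821396 counts in the first set and 23740769 to 30165765 recovered reads in the second, and members took 0.257% to 0.368% of the counts of the first set. Precision is limited by the spread between libraries, since chi-square per degree of freedom between libraries of a group was 19.9 to 76.7. All 10 markers of skeletal muscle fibres were present in both sets. The targeted genes give no check of the labels. No read of Pax4 was counted in any of the 9 first-set libraries (0 counts), a limit of 0.0701 to 0.138 CPM by library (3 counts, counting error only). Nrf1 stood at 488 and 444 normalised counts in WT con, at 499, 476 and 524 in NRF1 KD and at 449.5, 427 and 454 in double KD libraries. Nrf1 mRNA was thus not lower in NRF1 KD libraries (log2 fold change 0.10 ± 0.12 SE, adjusted p = 0.618), protein was not measured, and groups are named by their labels only. Innervated library 2 and denervated WT library 1 stood apart from their groups by this chi-square (52.5 and 76.7 beside 19.9, and 50.2 and 64.3 beside 41.4). Results of the first set were also computed without both. PAX4 KO library 2 stood apart too (51.9 and 55.0 beside 27.6) but was left out only on its own. The 2 libraries left out together had the highest members' median of the innervated and the lowest of the denervated WT libraries.

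The members were expressed over a wide range in innervated muscle. Per kilobase of exon, the lowest was Mrps34 at 1.40 CPM and the highest Mrps21, a homologue of bacterial S21, at 122.7 CPM, with quartiles of 7.46, 15.7 and 28.2 CPM. Mrpl42, Mrps28 and Mrpl12 followed Mrps21 at 80.1, 59.8 and 56.5 CPM per kilobase. Within a group, the SD over libraries was a median 11.6% of a member's mean in innervated WT, 8.14% in denervated WT and 8.59% in PAX4 KO. The genes lie on 17 chromosomes, with 11 on chromosome 11 and 8 on chromosome 17. Exons of 32 members share bases with another gene, most of them in Mrps34 (77.8%, Mapk8ip3 and Nme3) and Mrps25 (69.8%, Nr2c2). The strand of the reads is not stated, and part of the overlap lies on the same strand, where strand would not separate the genes. Same-strand overlap was 37.0% in Mrps34, 23.2% in Mrps18c, 19.9% in Mrps6 and 15.4% in Mrps24. The counts of these 32 are uncertain to that degree. They include Mrps18c and Mrpl47 (24.2%, Actl6a and Ndufb5), both called with denervation below.

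Promoters of 68 of the 77 members were found in RefSeq (GRCm38.p6), each a window of 250 bases before to 50 bases after the gene start, searched on both strands. The 10-letter alpha-PAL palindrome stood in the windows of 3 members, or 4.41%, against 1.07% of all 27025 genes with a window and 2.05% of the genes tested here. Its looser form, with any base at the sixth position and so including the palindrome itself, stood in 13 members, 19.1% against 5.19% and 10.2%, and the shorter TGCGCA, which can overlap both, in 21 members, 30.9% against 8.79% and 14.4%. CCGGAAG, the core bound by ETS factors such as GABP, stood in 25 (36.8% against 9.93% and 17.97%) and AAGATGG, a YY1 core, in 13 (19.1% against 7.28% and 7.97%). Median GC content was 58% in the members' windows and 60% in those of the genes tested. The pair CG was nearer its expected number in the members' windows. Its median ratio of observed to expected was 0.818 there, 0.718 in the genes tested and 0.390 in all genes with a window. The shares above were not matched for this ratio. The windows below are the 3 with the palindrome, chosen after the motif search, and those of Mrpl49 and Mrps30, the members that passed the test in the NRF1 KD comparison. Capitals mark the palindrome, which begins 28 bases before the start of Mrpl9, 87 before Mrpl32 and 125 before Mrpl39. From 5' to 3' the windows are chr3:94443086-94443385 (plus strand), chr13:14612988-14613287 (minus strand), chr16:84735195-84735494 (minus strand), chr19:6057706-6058005 (minus strand) and chr13:118387203-118387502 (minus strand).
Mrpl9: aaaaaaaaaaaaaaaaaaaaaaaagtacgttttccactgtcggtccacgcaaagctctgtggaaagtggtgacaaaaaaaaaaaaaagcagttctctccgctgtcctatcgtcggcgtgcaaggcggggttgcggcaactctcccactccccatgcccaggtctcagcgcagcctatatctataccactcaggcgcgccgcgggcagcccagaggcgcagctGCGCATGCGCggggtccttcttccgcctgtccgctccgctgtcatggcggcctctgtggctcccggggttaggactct
Mrpl32: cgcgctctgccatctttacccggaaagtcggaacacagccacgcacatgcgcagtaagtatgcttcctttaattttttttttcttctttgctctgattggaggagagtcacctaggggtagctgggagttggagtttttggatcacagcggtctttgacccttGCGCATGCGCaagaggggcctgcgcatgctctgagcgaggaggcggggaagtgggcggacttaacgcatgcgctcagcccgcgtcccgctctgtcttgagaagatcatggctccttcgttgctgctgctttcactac
Mrpl39: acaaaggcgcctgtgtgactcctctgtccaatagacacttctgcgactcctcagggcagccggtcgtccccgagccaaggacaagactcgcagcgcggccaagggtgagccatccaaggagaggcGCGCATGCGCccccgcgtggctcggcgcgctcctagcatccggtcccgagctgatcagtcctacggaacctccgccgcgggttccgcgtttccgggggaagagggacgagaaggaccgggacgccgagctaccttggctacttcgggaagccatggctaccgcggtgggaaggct
Mrpl49: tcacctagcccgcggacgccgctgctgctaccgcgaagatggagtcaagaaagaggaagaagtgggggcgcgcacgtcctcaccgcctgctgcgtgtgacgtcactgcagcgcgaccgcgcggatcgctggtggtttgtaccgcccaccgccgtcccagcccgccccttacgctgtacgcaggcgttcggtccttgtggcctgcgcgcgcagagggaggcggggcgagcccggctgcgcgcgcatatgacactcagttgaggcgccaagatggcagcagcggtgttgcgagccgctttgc
Mrps30: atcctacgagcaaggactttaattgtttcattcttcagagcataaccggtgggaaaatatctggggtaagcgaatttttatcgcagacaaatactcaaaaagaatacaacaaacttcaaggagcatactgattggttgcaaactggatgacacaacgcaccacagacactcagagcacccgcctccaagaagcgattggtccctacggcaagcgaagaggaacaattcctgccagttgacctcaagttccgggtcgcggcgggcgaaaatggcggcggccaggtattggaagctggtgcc

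Mrpl9 and Mrpl32 encode homologues of bacterial L9 and L32, and Mrpl39 a large-subunit protein of mitochondria only. The windows of Mrpl49 and Mrps30 hold neither form of the palindrome nor TGCGCA. That of Mrpl49 holds AAGATGG. A match is a description of letters, not of binding.

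After TMM scaling, denervation of WT muscle changed single members in both directions and left the middle of the group near 0. Of 77 members, 7 rose and 5 fell (edgeR, adjusted p under 0.05), where 16.5% of all 16146 genes tested rose and 15.8% fell, and 65 members did not pass the test. All 77 members passed the filter on low counts. The median log2 fold change was -0.03 (all genes 0.02), from -0.77 for Mrpl42 to 0.72 for Mrpl52. Before TMM scaling, members took a larger share of counts in every denervated WT library than in any innervated one. The shares were 0.340%, 0.336% and 0.368% in denervated WT and 0.292%, 0.333% and 0.257% in innervated libraries. The median near 0 is thus relative to that scaling. By subunit, 5 of 50 large-subunit genes rose and 3 fell, 2 of 26 small-subunit genes rose and 1 fell, and Mrps36 fell. The log2 fold change was above 0 for 35 of 77 and below 0 for 42 (all genes 51.6% and 48.4%). The libraries of the groups did not overlap for 16 members that were higher and 11 that were lower (all genes 23.9% and 22.6%). Fewer muscle fibres and less RNA per fibre cannot be told apart in bulk muscle.

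Among the large-subunit genes that fell, Mrpl42 (ENSMUSG00000062981, chr10:95480805-95501940, GRCm38), a protein of the mitochondrial particle without bacterial homologue, moved furthest. It stood at 313, 329 and 243 CPM in the innervated libraries and at 161, 177 and 181 CPM in the denervated WT libraries. Every denervated value lay below every innervated value, and the mean fell from 295 ± 46.2 to 173 ± 10.6 CPM (SD, n = 3), 1.70-fold (log2 fold change -0.77 ± 0.13 SE, adjusted p = 0.00224). Mrpl18 (ENSMUSG00000057388, chr17:12911349-12916345, GRCm38), a homologue of bacterial L18, stood at 76.5, 80.4 and 65.8 CPM before and 56.1, 58.5 and 53.2 CPM after denervation. Its groups did not overlap either (log2 fold change -0.41 ± 0.11 SE, adjusted p = 0.0170). Mrpl47, the homologue of bacterial L29 near the exit tunnel, fell from 41.1, 33.2 and 27.9 to 24.7, 24.3 and 22.1 CPM (log2 fold change -0.52 ± 0.16 SE, adjusted p = 0.0292), with innervated library 1 the highest. In the small subunit Mrps11 (ENSMUSG00000030611, chr7:78783119-78792989, GRCm38), a homologue of bacterial S11, stood at 18.7, 20.7 and 16.4 CPM in innervated and 11.3, 10.2 and 13.8 CPM in denervated muscle. The groups stood apart, and Mrps11 fell 1.58-fold (log2 fold change -0.66 ± 0.14 SE, adjusted p = 0.00654). Mrps36 fell from 58.03, 68.2 and 47.00 to 40.9, 45.3 and 43.4 CPM (adjusted p = 0.0340).

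The clearest rise was in Mrps30 (ENSMUSG00000021731, chr13:118378381-118387252, GRCm38), which despite its symbol sits in the large subunit. Mrps30 stood at 28.03, 26.7 and 24.3 CPM in innervated libraries and at 35.4, 43.7 and 41.7 CPM in denervated WT libraries. The groups did not overlap, and the mean rose from 26.3 ± 1.91 to 40.3 ± 4.34 CPM (SD, n = 3; log2 fold change 0.61 ± 0.11 SE, adjusted p = 0.00235). Mrpl52, another large-subunit protein without bacterial homologue, had the largest rise, from 18.6, 22.6 and 14.02 to 30.8, 26.7 and 33.8 CPM (log2 fold change 0.72 ± 0.21 SE, adjusted p = 0.0245). Mrpl17, a homologue of bacterial L17, rose from 44.1 ± 6.11 to 61.7 ± 10.2 CPM (SD, n = 3, adjusted p = 0.0403). In the small subunit Mrps10, a homologue of bacterial S10, rose from 31.9, 30.5 and 31.2 to 40.3, 33.96 and 44.5 CPM (adjusted p = 0.0393). The other members that rose were Mrpl33, Mrpl41 and Mrps18c, by 0.41, 0.38 and 0.42 on the log2 scale.

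**Figure D1:**
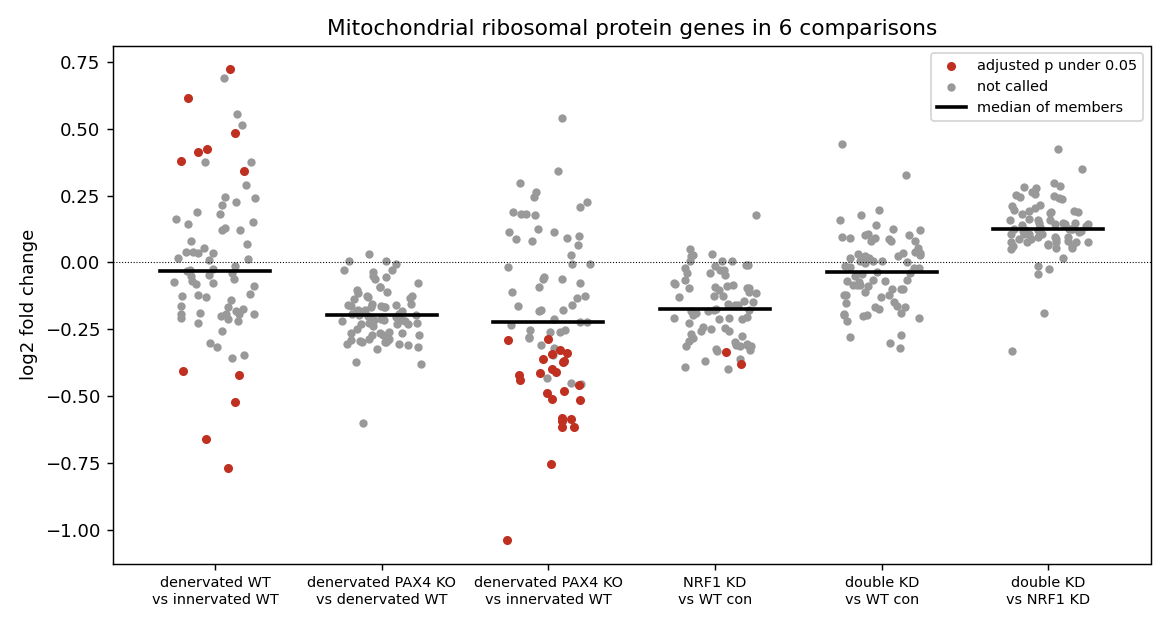
Each point is the log2 fold change (y axis) of a mitochondrial ribosomal protein gene in each of 6 comparisons (x axis), red where the adjusted p was under 0.05, with a bar at the median. Denervation spread members from -0.77 to 0.72 around a median of -0.03, whereas in PAX4 KO against denervated WT 74 of 77 lay below 0.

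Other parts of the translation machinery had medians of their own. Cytosolic ribosomal proteins, the Rpl and Rps genes, rose in 75 of 83 with 1 fall (Rpl3l), at a median of 0.84. Counts of both mitochondrial ribosomal RNAs fell, mt-Rnr1 from 2818, 2116 and 1799 to 1390.1, 1012 and 757 CPM (adjusted p = 0.00756) and mt-Rnr2 by a log2 fold change of -1.28 ± 0.29 SE (adjusted p = 0.00841). The libraries were made with an mRNA-Seq kit, and how fully it captured these rRNAs is not known. Here and below, their counts are thus not a measure of the rRNA in the particle. Of the 13 proteins encoded in mitochondrial DNA, 10 fell, at a median of -0.74. Among mitoribosomal proteins under other symbols 1 of 5 rose, Aurkaip1 (log2 fold change 0.53, adjusted p = 0.0323). Of 13 mitochondrial translation factors 3 fell, led by Taco1, an activator of COX1 synthesis (-0.58, adjusted p = 0.00316), and Gfm2, which recycles ribosomes (-0.42, adjusted p = 0.0164). Of 26 assembly factors and rRNA modifiers 2 rose and 4 fell, among them Mettl17 (-0.71, adjusted p = 0.00146) and the small-subunit GTPase Eral1 (-0.51, adjusted p = 0.00357). Macrophage markers rose in 9 of 13 (summed level 263, 365 and 119 CPM in innervated and 884, 439 and 442 CPM in denervated WT libraries, none at 0), and endothelial markers fell in 6 of 9 (905.7 to 995 CPM against 495 to 663 CPM). Summed muscle fibre markers were also lower, at 101916 to 122424 CPM against 72358 to 83140 CPM. So were Schwann cell markers (136 to 217 against 35.7 to 50.7 CPM) and adipocyte markers (463 to 480 against 280 to 348 CPM), while fibroblast sums overlapped. The part of all these markers in the members' values was not tested.

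These counts changed with the libraries used. The members that rose numbered 1 without innervated library 1 or 3 or denervated library 3, 3 without denervated library 2 and 11 without innervated library 2, and those that fell 2 without innervated library 1 or denervated library 3 and 3 without denervated library 1 or 2. Without innervated library 2 and denervated WT library 1, 11 rose and 2 fell and the median was 0.10. Calls over all genes ran from 3509 to 5283 when 1 library was left out and came to 5015 without both, beside 5210 with all libraries. The deposited columns of the WT groups carry the same 3 numbers in both, and the labels do not say whether a number marks 1 animal. With the number as a block 4 members rose and 4 fell, among 5034 calls over all genes. The authors' deposited table for this comparison lists 75 members, 11 of them at an adjusted p under 0.05. The share of all genes of that table under this threshold was not computed, so the count has no background.

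**Figure D2:**
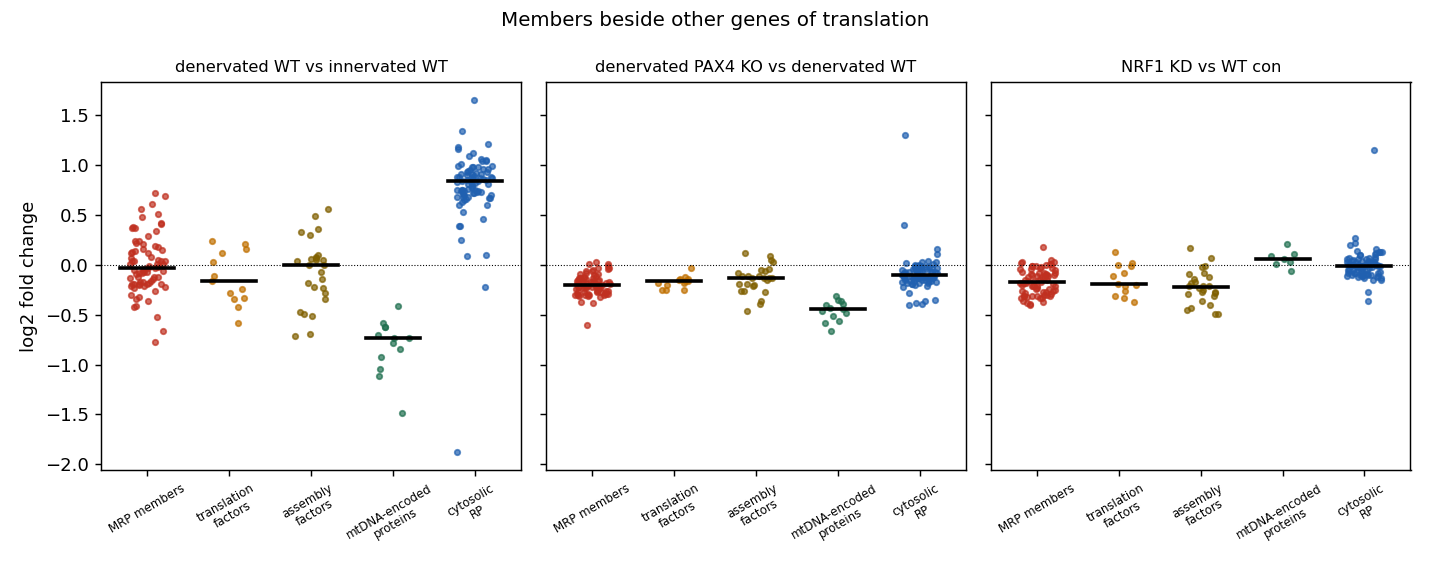
Log2 fold change (y axis) of each gene of the mitochondrial ribosomal proteins (MRP), translation factors, assembly factors, proteins encoded in mitochondrial DNA (mtDNA) and cytosolic ribosomal proteins (RP) in 3 comparisons, with bars at medians. With denervation the medians were -0.03 for MRP genes, 0.84 for cytosolic RP and -0.74 for mtDNA-encoded proteins.

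When denervated muscle labelled PAX4 KO was set beside denervated WT, no single member passed the test, and nearly all were slightly lower. Of 77 members 0 rose and 0 fell (edgeR, adjusted p), where 0.0186% of all genes rose and 0.0% fell, so the test called almost nothing in this comparison. The log2 fold change was below 0 for 74 of 77 members (all genes 49.0%), at a median of -0.20 against 0.01 for all genes. Before TMM scaling, the members' shares of counts overlapped between these groups. They were 0.342%, 0.340% and 0.340% in PAX4 KO and 0.340%, 0.336% and 0.368% in denervated WT libraries. The lower values are thus relative to that scaling. Scaling without mitochondrially encoded genes also left 74 members below 0. At an unadjusted p under 0.05, 0 members were higher and 12 lower (all genes 8.1% and 4.84%), and libraries of the groups did not overlap for 26 lower members (all genes 7.23%) and 0 higher (all genes 9.69%). DESeq2 called 1 member lower, Mrpl16 (adjusted p = 0.0472), among 192 calls over 30012 genes. Within edgeR, calls over all genes numbered 456 with no filter on low counts and 169 without innervated library 2 and denervated WT library 1. Of these calls 0 were members. Large and small subunits had like medians, -0.21 and -0.19.

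Mrpl16 (ENSMUSG00000024683, chr19:11770415-11774944, GRCm38), a homologue of bacterial L16, had the smallest p. Mrpl16 stood at 38.2, 42.4 and 40.2 CPM in denervated WT libraries and at 31.4, 28.02 and 33.3 CPM in PAX4 KO libraries. The groups did not overlap, the log2 fold change was -0.38 ± 0.10 SE and edgeR's adjusted p = 0.264, while innervated libraries, at 39.5, 42.99 and 40.8 CPM, lay near those of denervated WT. Mrps30 stood at 34.2, 31.9 and 30.96 CPM in PAX4 KO, below the denervated WT libraries and above the innervated ones (log2 fold change -0.32 ± 0.11 SE against denervated WT, adjusted p = 0.313). At the lower end of the range, Mrps34 had 4.91, 3.19 and 6.02 CPM in denervated WT and 3.24, 1.89 and 4.13 CPM in PAX4 KO, overlapping groups of the least abundant member (log2 fold change -0.60 ± 0.38 SE, adjusted p = 0.510). At the upper end, Mrps12, a homologue of S12 of the decoding centre, had 18.4, 18.1 and 25.4 and 17.2, 16.7 and 29.2 CPM (log2 fold change 0.03 ± 0.22 SE, adjusted p = 0.962).

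Other lists were read beside the members, and none of their values is a call. Proteins encoded in mitochondrial DNA had a median of -0.44, with 7 of 13 lower at an unadjusted p under 0.05, mitochondrial translation factors -0.16, assembly factors -0.13 and cytosolic ribosomal proteins -0.10, and 0 genes of these lists passed after adjustment. Muscle fibre markers had a median of -0.28, macrophage markers 0.88 and fibroblast markers 0.61. Summed macrophage markers came to 884, 439 and 442 CPM in denervated WT and 789.6, 1392 and 981 CPM in PAX4 KO libraries, and fibroblast markers to 2365, 1768 and 1793 and 2876, 8446 and 3033 CPM, with no marker at 0, and their part in the members' lower values was not tested. PAX4 KO library 2 had the highest sum of both marker lists, the fewest counts and the lowest members. Without it the median was -0.14 and 69 of 77 members lay below 0. Without denervated WT library 1 and innervated library 2, 76 did. The authors' deposited table has a comparison named denervated against Kd, a name that no label ties to the PAX4 KO libraries. In it 1 of 75 listed members had an adjusted p under 0.05, and the share over all its genes was not computed.

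**Figure D3:**
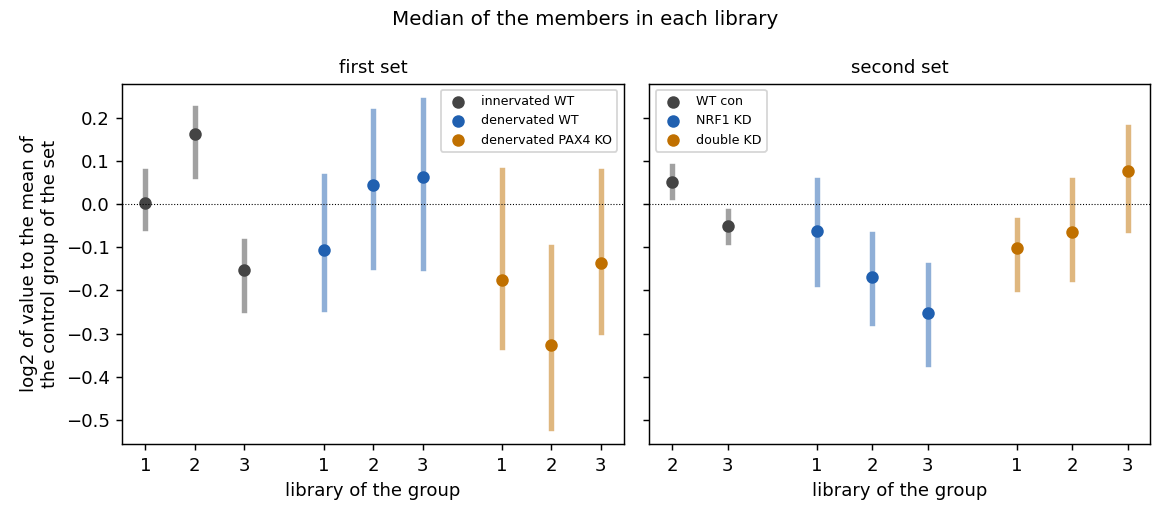
Median over members of log2 of each library's value to the mean of its set's control group (y axis), by library (x axis), with lines from the lower to the upper quartile of members. Controls are innervated WT (first set) and WT con (second set). PAX4 KO libraries lay at -0.18, -0.33 and -0.14, and the innervated controls spread from -0.15 to 0.16.

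The spread between libraries sets the scale for these medians. The median of members relative to the innervated mean was 0.00, 0.16 and -0.15 in innervated libraries, -0.11, 0.04 and 0.06 in denervated WT and -0.18, -0.33 and -0.14 in PAX4 KO. All PAX4 KO libraries lay below all denervated WT libraries, while the highest PAX4 KO library lay just above the lowest innervated library. The SD between libraries of a group, pooled over the set, was 0.12 on the same scale.

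Against innervated WT, muscle denervated and labelled PAX4 KO had more members that fell. Of 77 members 0 rose and 25 fell (all genes 21.8% and 18.2%), at a median of -0.22 (all genes 0.05). Before TMM scaling, members took a larger share of counts in PAX4 KO (0.340% to 0.342%) than in innervated libraries (0.257% to 0.333%). At an unadjusted p under 0.05, 4 were higher (all genes 26.9%). The log2 fold change was below 0 for 57 of 77 (all genes 46.5%), and the libraries of 29 members lay lower without overlap (all genes 23.3%). This comparison shares its libraries with both comparisons above and adds no independent support to them. By role, 11 of 29 large-subunit genes with a bacterial homologue fell, 5 of 20 without, 4 of 15 and 3 of 9 of the corresponding small-subunit genes, Mrps18a of the paralogs, and Mrps36. Mrpl42 stood at 153, 133 and 145 CPM, under every innervated library, a 2.06-fold fall (log2 fold change -1.04 ± 0.14 SE, adjusted p = 3.88e-04). Mrpl18 fell to 53.7, 47.1 and 47.5 CPM (log2 fold change -0.59, adjusted p = 0.00242), Mrps11 to 11.6, 9.93 and 11.5 CPM (-0.75, adjusted p = 0.00276). Mrps36 fell to 40.1, 36.6 and 36.3 CPM (-0.62, adjusted p = 0.00482). Mrpl52 and Mrps30 had the smallest p among members with a value above 0, with log2 fold changes of 0.54 ± 0.21 and 0.30 ± 0.11 SE (adjusted p = 0.0631 and 0.0503). All 13 proteins encoded in mitochondrial DNA fell (median -1.21), as did mt-Rnr1 and mt-Rnr2, whereas 72 of 83 cytosolic ribosomal proteins rose. All 13 macrophage markers rose and 5 of 10 fibre markers fell, and their part was not tested. The members that fell numbered 13 without innervated library 2, 12 without PAX4 KO library 2 and 15 without innervated library 2 and denervated WT library 1. Calls over all genes numbered 6488, 5111 and 6707 in the same order, beside 6457 with all libraries.

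**Figure D4:**
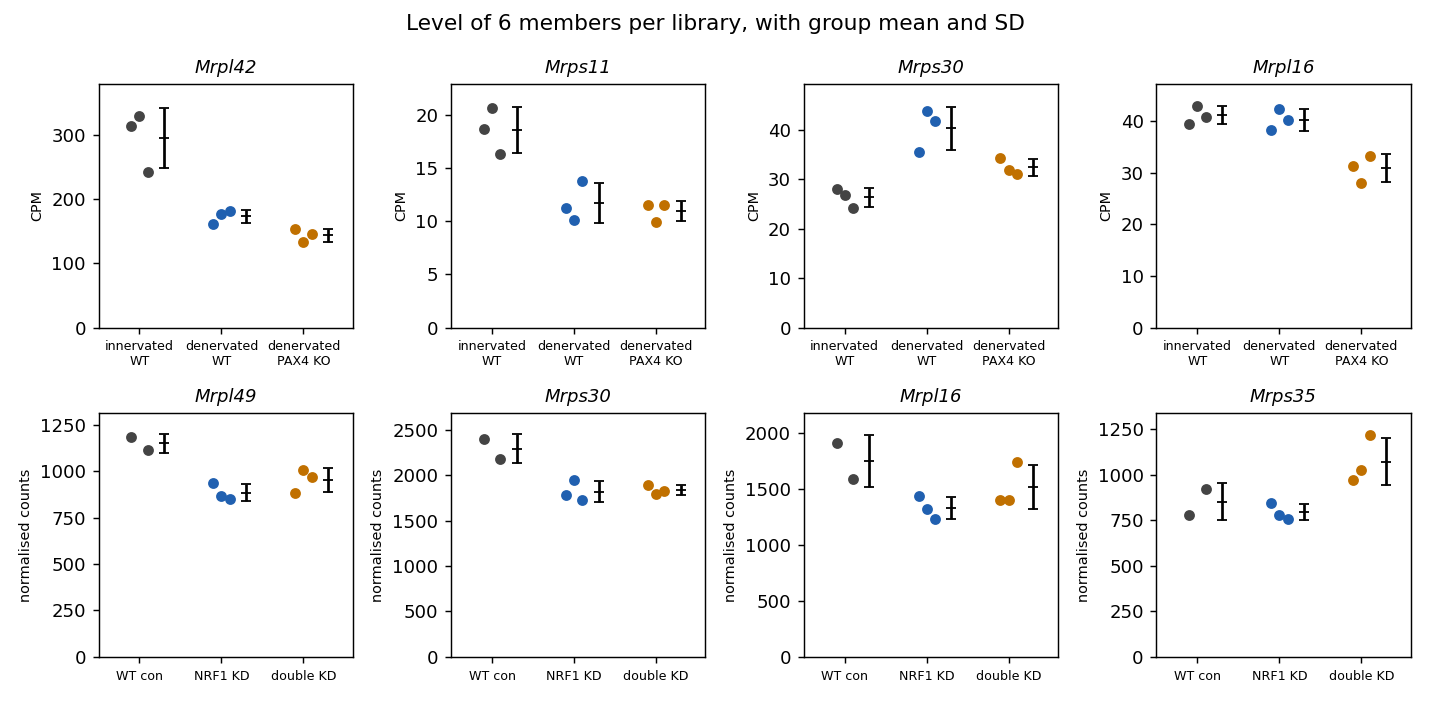
Levels of 6 members by library (points) with the group mean and SD (bars), in CPM in the upper row and normalised counts in the lower row, both axes starting at 0. Mrpl42 and Mrps11 are lower in every denervated library than in any innervated library, and Mrpl49 and Mrps30 are lower in every library labelled NRF1 KD than in WT con.

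In the second set, libraries labelled NRF1 KD were compared with WT con at the same time after denervation, and the members leaned low, with 2 calls. Of 75 members 0 rose and 2 fell (limma on log2 of the normalised count plus 1), where 7.58% of all 15624 genes rose and 3.72% fell. The share of members that fell was near that of all genes, so the 2 calls do not set the members apart. At an unadjusted p under 0.05, 0 members were higher and 22 lower (all genes 15.3% and 12.2%), and without overlap 0 were higher and 40 lower (22.5% and 23.4%). The log2 fold change was above 0 for 8 and below 0 for 67 of 75 (all genes 50.1% and 49.9%), at a median of -0.17 (all genes 0.00), from -0.40 for Mrps27 to 0.18 for Mrps36. Large and small subunits had medians of -0.18 and -0.17. Nrf1 mRNA itself was not lower in these libraries.

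Mrpl49 (ENSMUSG00000007338, chr19:6053630-6057751, GRCm38), a large-subunit protein without bacterial homologue, stood at 1184 and 1114 normalised counts in WT con and at 937, 867 and 848 in the libraries labelled NRF1 KD. The groups did not overlap, and the mean fell from 1149 ± 49.2 (SD, n = 2) to 884 ± 46.97 (SD, n = 3), 1.30-fold (log2 fold change -0.38 ± 0.10 SE, adjusted p = 0.0430). Mrps30 stood at 2405 and 2184 in WT con and fell to 1785, 1946 and 1729.8 (log2 fold change -0.33 ± 0.09 SE, adjusted p = 0.0479), again without overlap. Both calls lay close to the threshold, and edgeR on recovered reads gave them adjusted p of 0.0510 and 0.0679. Neither was called when any WT con or NRF1 KD library was left out. Mrps27, a small-subunit protein with RNA-binding repeats, had the lowest value, 1183 and 1038 in WT con and 898, 861 and 765 in NRF1 KD (log2 fold change -0.40 ± 0.13 SE, adjusted p = 0.0789). Mrps36 and Mrpl19 were the members with a value above 0 and the smallest p, at 0.18 ± 0.22 and 0.05 ± 0.15 SE (adjusted p = 0.653 and 0.866). Mrps36 stood at 106 and 98.9 in WT con and 105, 97.5 and 152 in NRF1 KD, where library 3 alone was high.

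Values of members with and without each motif are set side by side here. The 3 members with the palindrome had log2 fold changes of -0.31 (Mrpl9), -0.32 (Mrpl32) and -0.14 (Mrpl39), a median of -0.31 beside -0.18 for the 63 without, and 0 of the 3 passed the test. Mrpl9 stood at 2634 and 2429.7 normalised counts in WT con and at 2274, 1997 and 1863 in NRF1 KD (adjusted p = 0.0966). With the looser form the medians were -0.18 for 13 members with it and -0.18 for 53 without. They were -0.22 and -0.18 for TGCGCA (20 with, 46 without), -0.15 and -0.19 for CCGGAAG (24 and 42) and -0.29 and -0.18 for AAGATGG (13 and 53), so members with the YY1 core had a median near that of the 3 with the palindrome. Over all genes tested, the medians with and without were -0.120 and -0.002 for the palindrome and -0.115 and 0.011 for the looser form. They were -0.086 and 0.011 for TGCGCA, -0.075 and 0.017 for CCGGAAG and -0.080 and 0.003 for AAGATGG. Genes with each motif thus had a lower median over all genes as well. The windows shown above of Mrpl49 and Mrps30, the 2 members that fell, hold none of the alpha-PAL letters searched. Both calls lay close to the threshold, and sequence outside the windows was not searched. Whether alpha-PAL acts on any member was not tested.

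Of 26 assembly factors and rRNA modifiers 3 fell in the libraries labelled NRF1 KD, led by the rRNA methyltransferase Nsun4 (log2 fold change -0.40, adjusted p = 0.0371) and Ngrn (-0.49, adjusted p = 0.0376). Of 13 translation factors 0 passed (median -0.19; 3 lower at an unadjusted p under 0.05), and so did 0 of 5 mitoribosomal proteins under other symbols, of which Gadd45gip1, a large-subunit protein, stood at 0.74 ± 0.22 SE (adjusted p = 0.0527). Cytosolic ribosomal proteins had a median of -0.01, and mt-Rnr1 and mt-Rnr2 stood at 0.09 and 0.12 (adjusted p = 0.799 and 0.767). Macrophage markers rose in 12 of 12, their summed level going from 7949 and 10642 to 18502, 36234 and 37474 normalised counts, with none at 0. Summed fibroblast markers went from 23049 and 44440 to 57151, 59760 and 88720, while summed muscle fibre markers overlapped between the groups. Over the same libraries the members' median was 0.05 and -0.05 in WT con and -0.06, -0.17 and -0.25 in NRF1 KD, with a pooled SD between libraries of 0.0836. The part of the marker genes in the members' values was not tested. The authors' deposited table for this comparison has 3 members lower at an adjusted p under 0.05, of 75 listed. The share over all its genes was not computed.

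In the libraries labelled double KD, members lay near WT con. Of 75 members 0 rose and 0 fell (limma; all genes 2.39% and 1.7%, 4.08% in either direction), and edgeR on recovered reads also called 0. At an unadjusted p under 0.05, 1 was higher and 2 lower (all genes 12.0% and 9.49%), and without overlap 5 were higher and 16 lower (18.1% and 17.6%). The log2 fold change was above 0 for 32 and below 0 for 43 of 75 (all genes 52.1% and 47.9%), at a median of -0.04, from -0.32 for Mrps30 to 0.44 for Mrps36. Mrps30 stood at 1897, 1795 and 1822 normalised counts, below both WT con libraries (adjusted p = 0.0854), and Mrpl49 at 880.3, 1005 and 969.7, also below both (log2 fold change -0.27 ± 0.10 SE, adjusted p = 0.165). Mrps35, a small-subunit protein without bacterial homologue, stood at 779 and 921 in WT con and 968, 1025 and 1215 in double KD, above both (log2 fold change 0.33 ± 0.13 SE, adjusted p = 0.170). Mrps36 stood at 133, 139 and 146 (adjusted p = 0.289). The authors' deposited table has 0 of 75 members at an adjusted p under 0.05, and the share over all its genes was not computed.

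Double KD and NRF1 KD share the WT con libraries as their control, so they were also set against each other. Of 75 members 0 rose and 0 fell (limma; all genes 0.0768% and 0.0576%), with 7 higher and 1 lower at an unadjusted p under 0.05 (all genes 4.45% and 6.78%), and edgeR on recovered reads called 0. The log2 fold change was above 0 for 70 of 75 (all genes 51.0%), at a median of 0.13. It ran from -0.33 for Mrpl48 to 0.43 for Mrps35, which stood at 841, 779 and 759 in NRF1 KD and 968, 1025 and 1215 in double KD (adjusted p = 0.189). Mrps22, another small-subunit protein of mitochondria only, stood at 869.9, 838 and 745 and 899, 1086 and 1150.1 (log2 fold change 0.35 ± 0.11 SE, adjusted p = 0.271). Mrpl48 and Mrpl55, of the large subunit, had log2 fold changes of -0.33 ± 0.14 and -0.19 ± 0.09 SE (adjusted p = 0.414 and 0.463). Every Mrps35 and every Mrps22 value in double KD lay above every value in NRF1 KD, as for 8.03% of all genes. Every Mrpl55 value lay under those in NRF1 KD, as for 8.28% of all genes. These are named members only, and the number of all members without overlap is not given here. Members' library medians were -0.06, -0.17 and -0.25 in NRF1 KD and -0.10, -0.07 and 0.08 in double KD, so the groups overlapped. Macrophage markers summed to 22830.4, 16515 and 14284 normalised counts in double KD, with 8 of 12 lower than in NRF1 KD at an unadjusted p under 0.05, and their part was not tested.

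The 3 S18 paralogs hold different places, Mrps18c as the small-subunit protein at the site of bacterial S18, Mrps18b elsewhere in the small subunit and Mrps18a in the large subunit. With denervation Mrps18c stood at 18.7, 18.6 and 13.01 CPM in innervated and 21.7, 23.6 and 22.2 CPM in denervated WT libraries and rose (log2 fold change 0.42 ± 0.14 SE, adjusted p = 0.0425). Mrps18b stood at 17.9, 19.2 and 20.99 and 20.7, 23.8 and 21.5 CPM (0.18 ± 0.11 SE, adjusted p = 0.224) and Mrps18a at 54.1, 67.03 and 52.2 and 51.98, 56.7 and 55.3 CPM (-0.08 ± 0.12 SE, adjusted p = 0.640). In PAX4 KO their levels were 18.2, 16.4 and 19.2 CPM for Mrps18c, 21.99, 20.3 and 23.9 CPM for Mrps18b and 46.8, 41.4 and 48.8 CPM for Mrps18a, with log2 fold changes against denervated WT of -0.32, 0.01 and -0.26 (adjusted p = 0.376, 0.984 and 0.395). In libraries labelled NRF1 KD all 3 lay below WT con without overlap, as did 40 of 75 members and 23.4% of all genes, at -0.37, -0.33 and -0.15 in the same order (adjusted p = 0.127, 0.0613 and 0.368). Differences between the paralogs were not tested.

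Members with known extra roles in the large subunit were given throughout. Mrpl12, the stalk protein that also binds mitochondrial RNA polymerase, stood at 77.6, 105 and 77.02 CPM in innervated, 72.4, 66.7 and 78.02 CPM in denervated WT and 68.5, 55.9 and 69.6 CPM in PAX4 KO libraries. Its log2 fold change with denervation was -0.26 ± 0.15 SE (adjusted p = 0.202), and it passed the test only in PAX4 KO against innervated WT among the 6 comparisons (-0.42 ± 0.15 SE, adjusted p = 0.0416). Mrpl45, which anchors the ribosome to the inner membrane at the exit tunnel, stood at 73.2, 72.02 and 68.4, 55.3, 66.3 and 65.1 and then 54.6, 45.1 and 53.3 CPM in the same groups. Its PAX4 KO libraries lay under all others, with -0.29 ± 0.11 SE against denervated WT (adjusted p = 0.350) and -0.48 ± 0.11 SE against innervated WT (adjusted p = 0.00756). In libraries labelled NRF1 KD it stood at 1723, 1809 and 1569 normalised counts beside 2136 and 1971 in WT con (adjusted p = 0.110). Mrpl44, a protein with an RNase III fold, stayed near its innervated level of 32.9 ± 0.372 CPM (SD, n = 3), with 34.7 ± 1.16 CPM in denervated WT and 33.5 ± 2.63 CPM in PAX4 KO (adjusted p = 0.546 for denervation). Mrpl58, a peptidyl-tRNA hydrolase built into the subunit, stood at 23.8 ± 3.42, 25.05 ± 2.47 and 21.4 ± 1.61 CPM (SD, n = 3; adjusted p = 0.707 for denervation and 0.453 for PAX4 KO against denervated WT). In NRF1 KD the log2 fold changes of Mrpl12, Mrpl44 and Mrpl58 were -0.04, -0.12 and -0.01 (adjusted p = 0.860, 0.515 and 0.953).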

How the data were processed

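RNA came from muscle by TRIzol and libraries by the SMARTER mRNA-Seq kit, per the labels' protocols, and the submitters' processing notes name the builds GRCm38 and mm10. Aligner, counter, annotation and strand were not given in the sources used here. Unnormalised whole-number counts by gene were deposited by the authors for the 9 libraries of the first set. For the second set they deposited log2 values on a variance-stabilised scale and a signal column, the mean count after size factors. The deposited score is the authors' test statistic, and the deposited p-values and adjusted p-values are from their own tests. Log2 values were inverted to normalised counts with the smallest value, 6.84 (difference from the deposited mean at most 3.34e-07%). In every library 100% of the reads so recovered lay within 0.05 of a whole number. In the labels 6 further samples have no column and are not analysed here.

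Counts were tested over all genes with edgeR 4.0.16 (R 4.3.3; quasi-likelihood, TMM, filterByExpr, 9 libraries together). The test of the second set was limma 3.58.1 (trend, on log2 of the normalised count plus 1, 8 libraries together). A gene was called at an adjusted p (Benjamini-Hochberg, over all genes) under 0.05, and the models were tested on simulated data. Fold changes, SE and adjusted p come from these fits unless another tool is named, and means carry the SD over libraries. Counting floors cover counting error only. Gene positions and exon lengths came from GENCODE M21.

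Columns of the first set carry numbers found in no label, so they were tied to groups only and numbered 1 to 3 in ascending order. Members and gene lists were chosen with earlier results of these data known. Named members were up to 4 called per direction by adjusted p, otherwise the 2 with the smallest p, the extremes of each comparison, and members with known extra roles. Promoters shown beyond this rule are marked in the text. Alternatives were DESeq2 1.42.0 and its size factors, scaling without mitochondrial genes, no filter, at least 5 CPM or 50 normalised counts, pseudocounts of 0.1 and 5, the deposited log2 values, edgeR on recovered reads, only the groups compared, a replicate block, and libraries left out.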

Additional observations from a re-analysis of the deposited data

How the results depend on the processing

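Among alternatives for counts and medians of the group, 199 stayed near the main value and 32 moved. For named members, 614 of 701 alternatives kept direction and call, 55 lost the call, 8 gained it and 24 reversed. For denervated WT against innervated WT (7 higher, 5 lower, median -0.03), 11 were higher at a mean of at least 5 CPM, 3 with only the groups compared and 4 with the replicate block. Calls over all genes in either direction were 4153 of 10027, 4815 of 15389 and 5034 of 15389 in these fits, beside 5210 of 16146. Without innervated library 2 and denervated library 1, 11 were higher, 2 lower and the median was 0.10. Leaving out a library gave 1 to 11 higher, 2 to 5 lower and medians of -0.10 to 0.06. For PAX4 KO against denervated WT, DESeq2 gave 1 lower (192 calls over all genes). Leaving out a library gave 0 higher, 0 lower and medians of -0.25 to -0.14, with 1 to 26 calls over all genes. For PAX4 KO against innervated WT (0 higher, 25 lower), 1 was higher with no filter and 4 at a mean of at least 5 CPM, and without the 2 libraries together 3 were higher and 15 lower. Calls over all genes were 6476 of 30049, 4775 of 10027 and 6707 of 16279 in these fits, beside 6457 of 16146. Leaving out a library gave 0 to 1 higher, 12 to 29 lower and medians of -0.33 to -0.15, with 4781 to 6488 calls over all genes. For NRF1 KD against WT con (2 lower), 0 were lower in edgeR on recovered reads, with only the groups compared and with the replicate block. Calls over all genes were 1673 of 15567, 1598 of 15624 and 630 of 15624 in these fits, beside 1765 of 15624. Leaving out a library gave 0 to 1 lower, among 550 to 1611 calls over all genes, and medians of -0.21 to -0.12. Medians ran from -0.08 to 0.01 for double KD against WT con and from 0.08 to 0.17 for double KD against NRF1 KD. The cause of these moves was not tested.

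Log2 fold changes that changed sign were not called; before the change Mrps36 stood at 0.18 in NRF1 KD against WT con and the others between -0.08 and 0.07. With denervation Mrps18a stood at 0.079 without the 2 libraries and at -0.16 to 0.041 leaving out a library in turn, and Mrpl58 at -0.017 to 0.19. In PAX4 KO against denervated WT Mrps18b stood at -0.023 with DESeq2 size factors, -0.023 in DESeq2, -0.0076 with no filter and -0.043 without the 2 libraries, and leaving out a library gave -0.059 to 0.067. Mrps12 stood at -0.048 without the 2 libraries and at -0.28 to 0.21 leaving out a library, and Mrpl44 at -0.11 to 0.0073. In NRF1 KD against WT con Mrpl58 stood at 0.025 in edgeR on recovered reads, and leaving out a library gave -0.053 to 0.062 for Mrpl58, -0.15 to 0.068 for Mrpl12, -0.055 to 0.16 for Mrpl19 and -0.017 to 0.30 for Mrps36.

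In the first set both WT groups carry the same 3 numbers in their columns, and whether a number marks 1 animal is not stated. Libraries with the same number correlated in their deviations at 0.23, 0.03 and 0.27 for denervation, each best with its own number, a hint from the data and not the design. In the second set the correlations were 0.09 and 0.30 for NRF1 KD against WT con, and -0.08 and -0.37 for double KD against WT con. They were -0.34, -0.11 and -0.39 for double KD against NRF1 KD. Deviations of the 2 WT con libraries mirror each other, so correlations with them cannot settle a pairing. What a shared number means in the second set is not stated. No paired analysis was possible because the PAX4 KO columns share no number with the WT columns, in the 2 comparisons with PAX4 KO. With the replicate block 4 members rose and 4 fell with denervation.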

Other observations

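Levels of the members are set side by side here in denervated WT muscle of the 2 sets, which were normalised separately. In CPM of its own set, without TMM factors, a member's level in the second set was a median 1.49 times that in the first (quartiles 1.30 and 1.63, 75 members). A few members lay far outside this range, chosen here after their values were seen. Mrps34, whose exons overlap Mapk8ip3 and Nme3, stood at 4.90 CPM in the first set and 82.4 CPM in the second. Mrps36 stood at 44.6 and 3.65 CPM, Mrps33 at 61.2 and 12.9 CPM, and Mrpl23 at 71.0 and 17.1 CPM. The annotation behind either set is not given in the sources used here, and the cause of these differences was not tested.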
